A study of Mus musculus with 8 samples.

Results

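Bone morphogenetic protein (BMP) signalling and the Id genes were followed through Trim71 loss in mouse embryonic stem (ES) cells. The transcripts were selected by gene symbol, from a list drawn up with earlier results of these data known. They were the ligand Bmp4, the receptors Bmpr1a and Bmpr2 and the signal transducers Smad1 and Smad5. The inhibitory Smad6 and the targets Id1, Id2, Id3 and Id4 completed the set. All 10 were present among the 13558 transcripts deposited. Polyadenylated RNA was sequenced in 8 libraries of male C57BL/6 ES cells kept in serum with LIF and enriched for the surface antigen SSEA-1 before lysis. The 4 WT libraries are labelled Trimfl/fl and carried the intact conditional allele, and the 4 KO libraries are labelled Trim-/-. All cells came from lines with exon 4 of Trim71 flanked by loxP sites and Cre-ERT2 at the Rosa26 locus. KO cells had received 500 nM 4-hydroxytamoxifen (4-OHT) for 2 days and were kept without it for at least 7 days, per the labels. The paper describes a lower dose, a shorter later culture and a DMSO control. No treatment is listed for the WT libraries, so genotype and exposure to 4-OHT cannot be told apart. WT is thus a floxed line and not a wild-type strain. Clone E3 gave 3 KO and 2 WT libraries and clone 1 gave 1 KO and 2 WT libraries. The labels also give a day, and days 3, 4 and 5 each held 1 library of either genotype.

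BMP ligands bring type I and type II receptor kinases together, and the type I receptor then phosphorylates Smad1 and Smad5. These bind Smad4, enter the nucleus and switch on targets, among which the Id genes are the best known. Id proteins are helix-loop-helix proteins without a DNA-binding region that hold E proteins away from DNA. In mouse ES cells, serum or BMP4 acts with LIF through Id proteins to hold back neural differentiation. Smad6 is itself a target and closes a negative loop.

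Short stretches of the members' promoters show the letters that Smad proteins are known to bind. The words GGCGCC, which Smad1 and Smad5 bind in BMP response elements, and GTCTAGAC, the palindromic Smad binding element, were searched from 250 bases before to 50 after each start site (RefSeq, GRCm38.p6). Both words read the same on either strand and do not overlap each other. Promoters were listed for 9 of the 10 members, all but Id1. These 9 genes had 11 promoters listed. GGCGCC was present in 5 of the 9 genes (Bmpr1a, Bmpr2, Id2, Id4 and Smad5). By promoter it was present in 6 of the 11, with the same Smad5 site counted for each of its start sites, and in 11.866% of the 32851 promoters listed. GTCTAGAC was present in 1 of the 11, that of Smad6, and in 0.213% of all promoters. The matches in the 3 target genes are shown with 10 bases on either side, the word in capitals, and lie at chr9:64022046-64022073 (minus strand), chr12:25096308-25096333 (minus strand) and chr13:48260958-48260983 (plus strand).
Smad6: ccgccaaagtGTCTAGACtggcatatga
Id2: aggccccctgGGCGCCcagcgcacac
Id4: cgggttgcccGGCGCCccgccctcgc
Of these 3 genes none passed the test between genotypes described below, so the matches are a description of sequence only.

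The targeted gene was checked first. KO replicates 1 to 4 held 500, 793, 733 and 247 normalized counts of Trim71, and WT replicates 1 to 4 held 2782, 2736, 1988 and 2584. All KO libraries were below all WT libraries. Counts cover every exon, deleted or not. Values are normalized read counts from which the authors had subtracted a clone effect, so they are a signal rather than raw reads. Whole reads were recovered from them and totalled 6906507 to 25690949 per library, which gave 25 to 2602 reads for a member in a library. ES cell markers were all present (7 of 7), with a summed level of 55375 to 76948 normalized counts in KO and 51206 to 68686 in WT. KO replicate 3 stood apart, as its deviations from the mean over libraries followed the GC content of the transcript (Spearman's rho of 0.72 over 10594 transcripts, against -0.47 to 0.19 in the other 7 libraries).

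Within WT cells the 10 transcripts covered a wide range of levels. Divided by exon length, Id2 was highest at 451 ± 150 normalized counts per kb (SD, n = 4). Bmpr1a was at 208 ± 15.3 and Id1 at 196 ± 155, followed by Id3 at 143 ± 85.6, Bmp4 at 120 ± 23.4 and Smad5 at 109 ± 7.27. Smad1 was at 81.5 ± 8.03, Bmpr2 at 46.0 ± 3.54, Smad6 at 27.9 ± 6.75 and Id4 at 16.1 ± 6.71. The WT ranges of neighbours in this order overlapped from Bmpr1a to Smad5 and again between Smad6 and Id4. The ranges of Id2 and Bmpr1a, of Smad5 and Smad1, of Smad1 and Bmpr2, and of Bmpr2 and Smad6 did not. In KO cells Id1 averaged 578 ± 195 and Id2 525 ± 94.6 normalized counts per kb. The receptors and Smad1 and Smad5 varied little among WT libraries, with coefficients of variation of 6.64% to 9.85%. Among the targets that coefficient was 79.0% for Id1, 59.7% for Id3, 41.8% for Id4 and 33.3% for Id2.

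**Figure D1:**
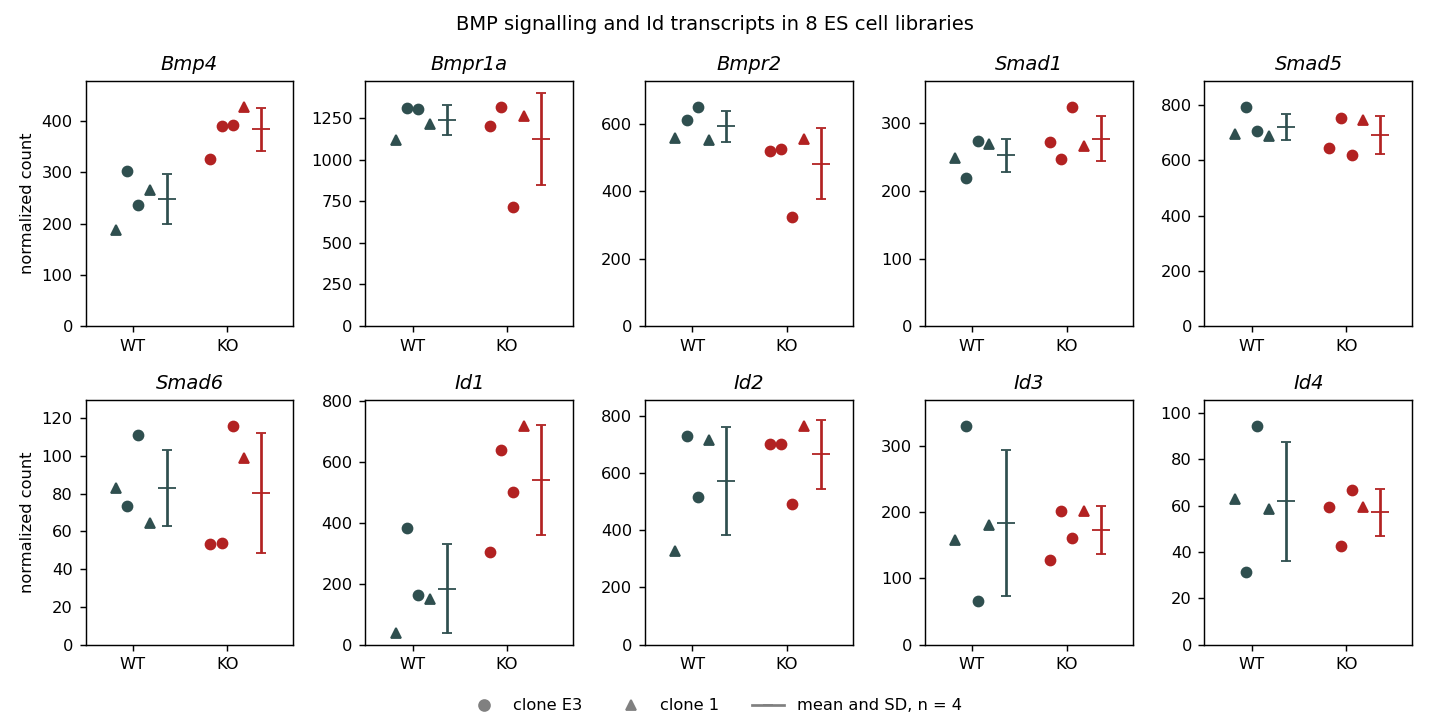
Normalized counts of the 10 transcripts in each WT (dark) and KO (red) library, with replicates 1 to 4 from left to right, circles for clone E3 and triangles for clone 1; bars give the mean and SD of 4 libraries, and each vertical axis starts at 0. For Bmp4 every KO point lies above every WT point, and for Id1 only the highest WT point (384) passes the lowest KO point (303).

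The genotypes were then compared with limma on log2(value + 1), with clone as a term. The study's criterion for a changed transcript was used, a fold change of 1.5 or more with an unadjusted p below 0.05. Of the 10 members 2 passed, Bmp4 and Id1, both higher in KO. Over all transcripts 4.25% passed in either direction and 1.76% were higher in KO. As the members were chosen with earlier results known, these shares are given for description only. At an unadjusted p under 0.05 alone there were the same 2 members, against 9.09% of all transcripts. After adjustment over all 13558 transcripts 0 members had a limma p under 0.05, and neither did any other transcript, the smallest adjusted p being 0.275. The median log2 fold change was 0.068 over the 10 members, 6 above and 4 below 0, and 0 over all transcripts, of which 6774 were above 0. Nothing in the labels says that libraries of a genotype were separate derivations beyond the clones and days, so p-values measure the spread among these libraries.

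Bmp4, the ligand, was at 326, 390, 392 and 427 normalized counts in the KO libraries (in the order of replicates 1 to 4, as for every member) and at 188, 302, 237 and 266 in the WT libraries. The lowest KO library lay above the highest WT library, and Bmp4 was the 1 member of 10 whose genotypes did not overlap, which held for 10.1% of all transcripts. Means were 383.8 ± 42.0 (SD, n = 4) in KO and 248.2 ± 48.4 in WT. Bmp4 was thus higher in KO by log2 0.63 (SE 0.18, 95% interval 0.20 to 1.06), close to the fold limit, with a limma p of 0.0104 and an adjusted p of 0.452. A two-sided exact permutation test gave a p of 0.0286, and 4 against 4 libraries allow none smaller. Bmp4 was higher in KO in each same-day pair, by log2 0.37, 0.73 and 0.68 on days 3, 4 and 5, and by 0.46 in clone E3 and 0.93 in clone 1. Without KO replicate 4, which leaves clone 1 no KO library, the difference was again the 0.46 of clone E3, with a limma p of 0.0821. Without WT replicate 1 it was 0.52, under the fold limit, with a limma p of 0.0139. With the trend of each library on GC content and transcript length removed it was 0.58, just under the fold limit.

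Id1, the target most often read as a sign of BMP signalling, was at 303, 640, 499 and 718 normalized counts in KO. In WT it was at 37.6, 384, 161 and 151. WT replicate 2 reached above KO replicate 1, so the genotypes overlapped, while the other 3 KO libraries lay above all of WT. Means were 540.3 ± 182 (SD, n = 4) in KO and 183.4 ± 145 in WT. This was a log2 difference of 1.72 (SE 0.66), a fold of 3.30 with a 95% interval from 1.13 to 9.63, a limma p of 0.0338 and an adjusted p of 0.516. By a two-sided exact permutation test p was 0.0571. Of the transcripts without a value at the authors' floor of 1, 11 had a larger absolute log2 fold change.

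The size of the Id1 difference varied between clones and days. KO exceeded WT by log2 0.74 on day 3, 1.62 on day 4 and 2.24 on day 5. It was 0.88 in clone E3, where a limma test on that clone alone gave a p of 0.127, and 3.23 in clone 1, which has 1 KO library. Undoing the clone correction raised WT replicate 1 from 37.6 to 78.0 normalized counts and brought the clone 1 difference to 2.62. The interaction of genotype and clone had a limma p of 0.0828 (0.171 with the correction undone), and for 0 of the 10 members was it under 0.05. Id1 was no longer past 0.05 without KO replicate 4 (log2 0.88, p of 0.241), WT replicate 3 (p of 0.0884), KO replicate 2 (0.0633) or KO replicate 3 (0.0521). Without KO replicate 4 clone 1 has no KO library, so that fit gives the clone E3 difference again. Id1 kept its direction in all 27 fits made, from log2 0.88 to 2.32.

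**Figure D2:**
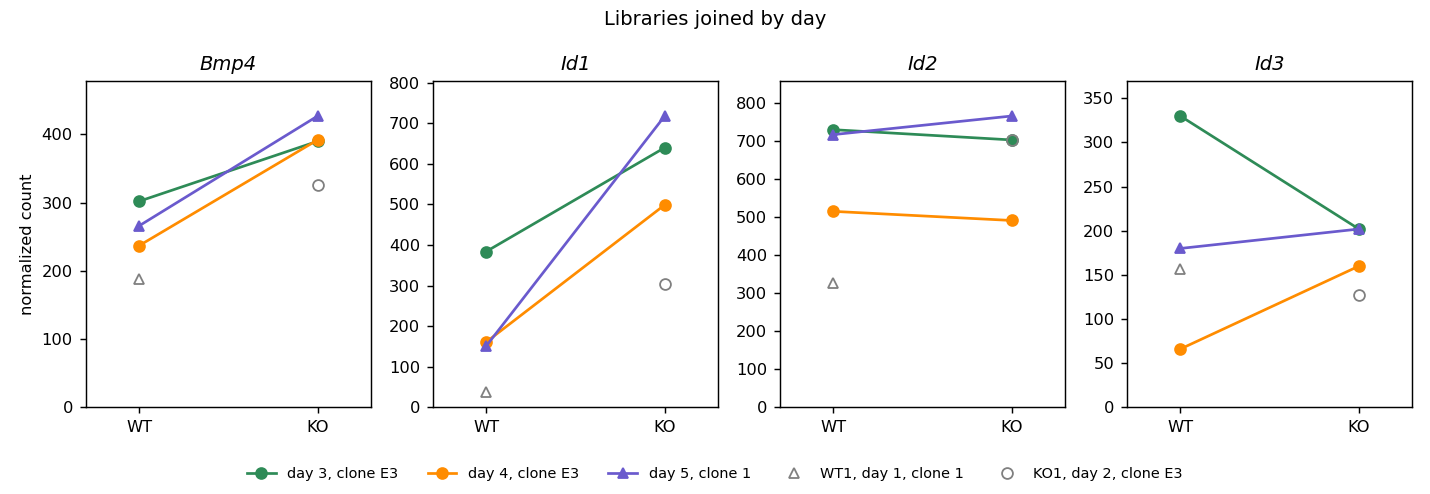
Normalized counts of Bmp4, Id1, Id2 and Id3 in WT and KO libraries, with lines joining the libraries of the same day and open symbols for the 2 libraries whose day has no partner. All 3 lines rise for Bmp4 and Id1; for Id2 the day 3 and day 4 lines fall slightly, and for Id3 the day 3 line falls from 330 to 202.

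Bmp4 and Id1 ranked the libraries alike at both ends. WT replicate 1 was lowest in both and KO replicate 4 was highest in both. Within WT, replicate 2 was highest for either transcript, and within KO, replicate 1 was lowest. Markers of primitive and definitive endoderm had the same extremes: their sum was lowest in WT replicate 1 at 67.9 and highest in KO replicate 4 at 570 normalized counts. Between these ends the order differed, as for this sum KO replicate 2 lay below WT replicates 2, 3 and 4. All 6 of these markers were in the table, with sums of 259 to 570 in KO and 67.9 to 422 in WT. Gata6, Sox17 and Foxa2 were at the floor of 1 in their lowest WT library. Dab2 went the other way, with a log2 difference of -0.34 and a maximum of 111 in KO and 195 in WT. The part of these markers in the Bmp4 and Id1 differences was not tested, and in bulk RNA more cells of a type and more RNA per cell cannot be told apart. As for endoderm, sums for fibroblast (3 of 7 in the table), trophoblast (5 of 6), mesoderm (3 of 5) and neuroectoderm (3 of 5) markers overlapped between the genotypes. In these lists, endoderm included, 0 genes passed the criterion. The genotypes did not overlap for Cdx2 and Nes, as for 10.1% of all transcripts. Cdx2 was at 19.6 to 35.9 in KO and 1.0 to 14.8 in WT, and Nes at 234 to 279 and 309 to 438.

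The other Id genes did not pass the test. Id2 was at 703, 704, 492 and 767 normalized counts in KO and 328, 731, 516 and 718 in WT. WT replicate 1 was again the lowest library, and the other 7 overlapped. The log2 difference was 0.25 with a 95% interval from -0.46 to 0.96 and a limma p of 0.433. Id3 was at 127, 202, 160 and 202 in KO and 157, 330, 66.1 and 180 in WT, so that WT held both the highest and the lowest value. Its log2 difference was 0.17 with an interval from -0.95 to 1.28 and a limma p of 0.734, and it depended on single WT libraries. Without WT replicate 2 it was 0.79 with a limma p of 0.0301, past the criterion, and without WT replicate 3 it was -0.42 with a p of 0.248. Id4, the scarcest member, was at 59.5, 42.6, 66.9 and 59.3 in KO and 62.9, 31.4, 94.5 and 58.5 in WT. Its log2 difference was 0.00 with an interval from -0.80 to 0.80. The intervals of Id2, Id3 and Id4 thus hold fold changes past 1.5.

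Whether Id1 differed from its relatives was tested on the ratio within each library, a comparison added after the values were known. The log2 ratio of Id1 to Id2 ran from -1.21 to 0.02 in KO and from -3.09 to -0.93 in WT, a difference in means of 1.63. The differences were 1.79 for the ratio to Id3 and 1.93 for that to Id4. Exact two-sided permutation p-values were 0.0571, 0.0571 and 0.0857, and 0.0856 to 0.0857 after adjustment over the 3 ratios. With the clone correction undone, the ratio to Id3 did not overlap, at 0.86 to 2.03 in KO and -0.84 to 0.53 in WT. Its permutation p was 0.0286, the smallest that 4 against 4 libraries allow, and 0.0856 after adjustment. For the ratios to Id2 and Id4 that p was 0.0571 and 0.1429. The response of Id1 was thus not shown to differ from that of the others.

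Among the 6 pairs of Id genes 1 correlation across the 8 libraries passed. Id3 and Id4 ran in opposite directions, with a Pearson's r of -0.91 (exact permutation p of 0.00583, adjusted 0.035) and a Spearman's rho of -0.83 (p of 0.0154, adjusted 0.0916). Leaving out WT replicates 2 and 3, the farthest from the median of Id3, brought r to -0.52. With the clone correction undone r was -0.71 (exact permutation p of 0.0446, adjusted 0.232), so the relation rests on those libraries and on that correction. For Id1 and Id2 r was 0.75 (exact permutation p of 0.0361, adjusted 0.108), with a rho of 0.52 (p of 0.197, adjusted 0.236). The transcripts whose profile was most like that of Id1, of 9937 with a mean of at least 100, were Etv4 (r = 0.983 over 8 libraries), Gbx2 (0.981) and Slc52a3 (0.979). Etv4 averaged 3010 normalized counts in KO and 1788 in WT, Gbx2 843.4 and 407.5, and Slc52a3 216.7 and 89.4.

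The receptors did not pass the test. Bmpr1a, a type I receptor, was at 1206, 1317, 715 and 1267 normalized counts in KO and 1119, 1311, 1309 and 1219 in WT. Bmpr2, the type II receptor, was at 521, 526, 325 and 556 in KO and 560, 611, 650 and 553 in WT. For both transcripts KO replicate 3 was the lowest of the 8 libraries, and the rest overlapped. The log2 differences were -0.17 with an interval from -0.69 to 0.35 for Bmpr1a and -0.32 with an interval from -0.79 to 0.15 for Bmpr2 (limma p of 0.472 and 0.154). Both transcripts are poor in GC (41.3% and 41.0%) and lay 0.70 below their mean on the log2 scale in that library, the one whose values followed GC content. Without KO replicate 3 the log2 differences were 0.01 and -0.16, and with the trend on GC content and length removed from every library they were 0.08 and 0.07. Whether GC content caused the low values was not tested.

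The Smads did not pass the test either. Smad1 was at 273, 247, 324 and 266 normalized counts in KO and 249, 219, 274 and 269 in WT. Smad5 was at 644, 753, 619 and 746 in KO and 697, 792, 705 and 688 in WT. The 95% intervals of the fold ran from 0.874 to 1.38 for Smad1 and from 0.781 to 1.17 for Smad5, and neither reached 1.5. Smad6, the inhibitor, was at 53.3, 53.6, 116 and 98.9 in KO and 82.8, 73.2, 111 and 64.7 in WT. Its replicates spread over a wider range, and its interval of the fold, 0.551 to 1.61, passed 1.5 on both sides.

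**Figure D3:**
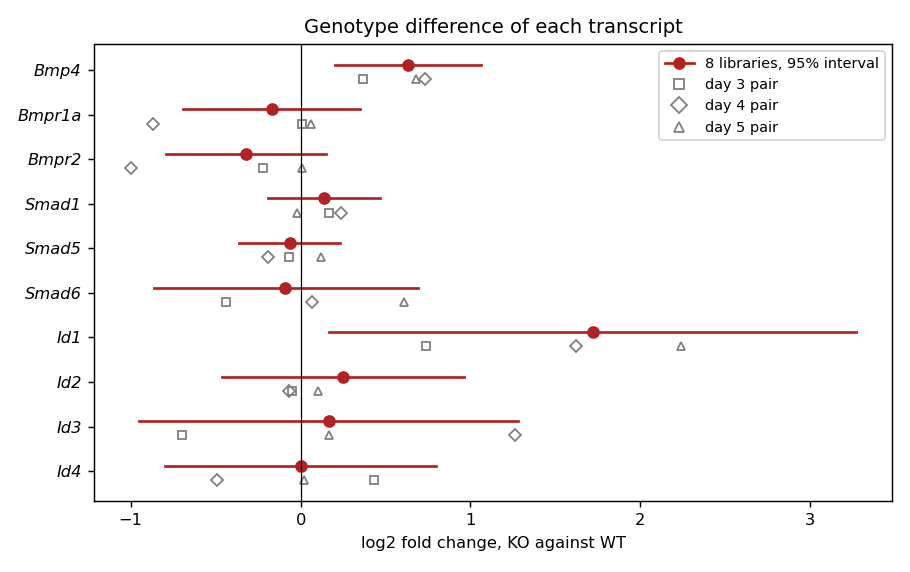
Log2 fold change of KO against WT for the 10 transcripts; red points and lines give the fit over 8 libraries with its 95% interval, and open grey symbols give the single same-day pairs. The intervals of Bmp4 (0.20 to 1.06) and Id1 (0.17 to 3.27) lie above 0 and the other 8 cross it.

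The wider pathway was read from a list of 72 other gene symbols grouped by role, of which 54 were in the table. The criterion was passed by 1 of the 54, higher in KO, and by 0 lower, and 53 passed in neither direction. This compares with 4.25% of all transcripts. At an unadjusted p under 0.05 there were 3, Acvrl1, Rgma and Gdf3, against 9.09% of all transcripts. With the libraries of a day as a block, over 6 libraries, 5 passed, 4 higher (Gdf15, Acvrl1, Chrd and Zfp423) and 1 lower (Usp9x), against 7.49% of all transcripts in that fit. The same block left 2 members past the criterion, Bmp4 at log2 0.59 and Id1 at log2 1.53.

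Of the ligands, 7 of 13 were in the table and 0 passed. Gdf3, a TGF-β family ligand abundant in ES cells, averaged 1204 ± 158 normalized counts (SD, n = 4) in KO and 1561 ± 199 in WT. Its genotypes did not overlap, which held for 3 of the 54 pathway genes and 10.1% of all transcripts. Acvr2a and Smurf2 were the others, also lower in KO. The log2 difference of Gdf3, -0.39 with a limma p of 0.0420, was under the fold limit. Bmp7 averaged 97.4 ± 70.7 and 117.6 ± 70.6. Of the receptors 1 of 4 passed: Acvrl1, a type I receptor known from endothelium, was at 32.2 ± 11.3 in KO and 16.3 ± 6.37 in WT. It was higher in KO by log2 0.93 (SE 0.34), with a limma p of 0.0299 and an adjusted p of 0.506, and without KO replicate 4 the p was 0.177. Its p was 0.05 or more in 8 of 26 fits. The type II receptors Acvr2b and Acvr2a averaged 240.8 and 194.2 in KO against 243.8 and 229.3 in WT.

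Among the 6 co-receptors, all in the table, 0 passed, with Eng at 512.0 ± 249 in KO and 486.2 ± 137 in WT and Neo1 at 807.8 ± 51.9 and 909.2 ± 76.9. Rgma, which binds BMP ligands at the membrane, had a log2 difference of 0.55 with a limma p of 0.0437. Of the extracellular antagonists and modulators 10 of 16 were in the table and 0 passed. Fstl1 averaged 1400 ± 82.7 normalized counts in KO and 1491 ± 206 in WT, and Twsg1 1041 ± 86.2 and 1023 ± 187. Chordin (Chrd), which binds BMP ligands outside the cell, was at 41.4 ± 9.48 in KO and 27.4 ± 9.06 in WT. Its limma p was 0.0623 over 8 libraries and 0.00204 with the day block. In the blocked fit with the trend on GC content and length removed, Chrd did not pass the criterion.

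Inside the cell, Smad4, the shared partner, averaged 1135 ± 86.0 normalized counts in KO and 1013 ± 77.7 in WT. Smad7, the other inhibitory Smad, averaged 868.3 ± 118 and 696.0 ± 68.9, with a log2 difference of 0.32 and a limma p of 0.0691 (0.00868 with the day block). Of the 17 intracellular regulators 0 passed over 8 libraries, and Fkbp1a, which holds type I receptors inactive, averaged 3569 ± 114 and 3478 ± 330. Usp9x, a deubiquitinase that acts on Smad4, averaged 6233 ± 2371 and 8825 ± 1161, and Zfp423, a zinc-finger partner of the BMP Smads, 355.8 ± 110 and 229.3 ± 114. Of the other targets 5 of 8 were in the table and 0 passed, with Dusp9 at 3003 ± 1185 in KO and 2304 ± 764 in WT and Dlx3 at 64.6 ± 28.7 and 46.4 ± 20.8. The E proteins that Id proteins bind did not pass: Tcf3 averaged 1979 ± 334 and 1921 ± 188, and Tcf12 659.7 ± 148 and 694.9 ± 78.6.

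**Figure D4:**
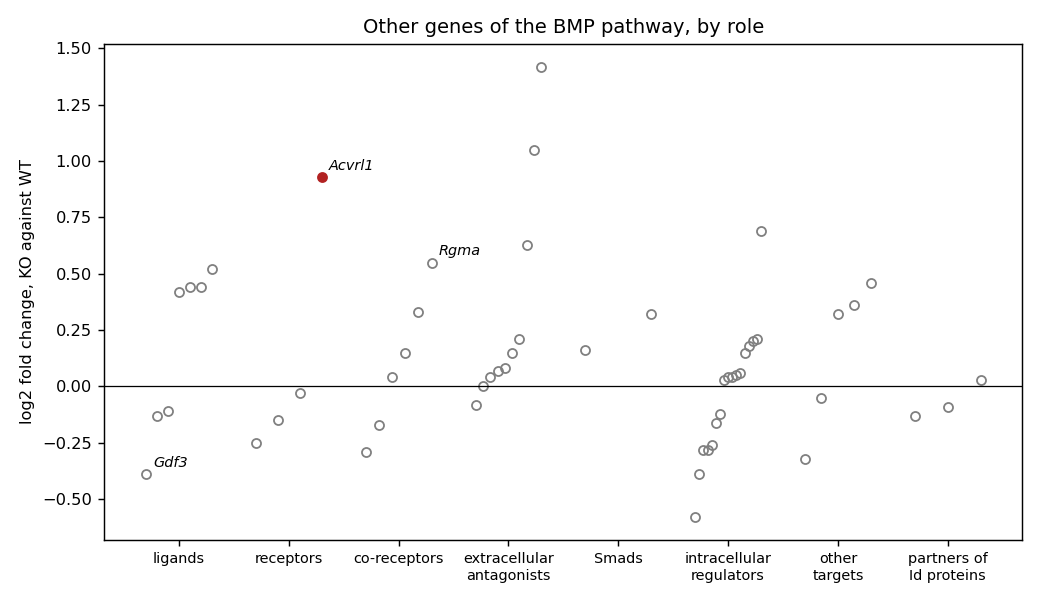
Log2 fold change of KO against WT for the 54 other pathway genes in the table, sorted within each role; the filled red point passed the criterion and the 3 names mark an unadjusted p under 0.05. Acvrl1 at 0.93 is the filled point, and the open points above it, both antagonists, had p-values over 0.05.

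Id1 is at chr2:152736251-152737410 on the plus strand with 2 exons, and Bmp4 at chr14:46383520-46390669 on the minus strand with 4 exons (mm10). The library kit does not mark strand, so reads from a gene and an antisense neighbour cannot be told apart. Such neighbours are annotated for Bmp4, Bmpr1a and Id4, and none of them was in the table.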

How the data were processed

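Reads were counted per RefSeq transcript after alignment to mm10. Per the labels the processing used CASAVA 1.8, Bowtie2 2.2.1, Partek 6.6 and DESeq2. The deposited values are a signal. The authors normalized the counts with DESeq2, applied a batch correction and set values under 1 to 1. They then dropped transcripts with no group mean of at least 10. That the correction subtracted a clone effect on the linear scale was inferred from the values. Raw counts were not used as such. Values were given back as whole reads times 1 unit per library plus 1 shift per transcript for 13486 transcripts (99.5%), within print rounding, and those reads were used to undo the correction and with voom. The totals cover these transcripts only. Depth limits the precision of low transcripts.

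The genotype difference was fitted in limma 3.58.1 (R 4.3.3), with clone as a second term and values as log2(value + 1), and Benjamini-Hochberg adjustment ran over 13558 transcripts. Fold changes on this scale understate low transcripts. For single values, all 70 assignments of libraries to genotypes gave an exact two-sided permutation p (Python 3.11.15, scipy 1.17.1). Levels per length used the exons of GENCODE M21. The fits were tested on simulated data. Motifs and promoters were read from RefSeq.

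The labels give the day that pairs 6 libraries. Deviations from the group means correlated at 0.42, 0.54 and -0.23 for the pairs of days 3, 4 and 5 in the deposited values, and at 0.54, 0.63 and 0.52 with the clone correction undone (medians of the 13 other pairs 0.05 and -0.18). Each same-day pair also shares its clone. The median of the 13 other pairs pools pairs of the same clone with pairs of different clones, so this comparison does not separate day from clone.

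The members and lists were chosen with earlier results of these data known. Named were all members, Trim71, pathway genes past the criterion and the 2 most abundant of each role per kb, and the 3 transcripts most like Id1. Rgma, Chrd, Gdf15, Zfp423 and Usp9x were named after their values were seen, as was Smad7's block value. Alternatives covered scaling, filters, pseudocount, model terms, the day block and leaving out each library. The GC and length correction was added after seeing the data.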

Additional observations from a re-analysis of the deposited data

Results flagged for a closer look

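Bmpr1a in KO replicate 3, at 715 normalized counts from 603 reads, lay far below the other 3 KO libraries. The gap to the nearest was 0.855 of the group's range, above Dixon's 95% critical value for 4 samples. Bmpr2 in the same library, at 325 normalized counts from 292 reads, had a gap of 0.878 of the range. With the clone correction undone both gaps were under the critical value, at 0.673 and 0.668. The 10 members in 2 genotypes gave 20 groups, of which chance marks about 1.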

How the results depend on the processing

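Members past the criterion, 2 over 8 libraries, were 0 within clone E3. Correcting for GC content and length left 1, Id1, at log2 1.57 with a limma p of 0.0489, close to the limit. That correction joined to the day block also left Id1 alone, at log2 1.39 with a limma p of 0.0118. Leaving out 1 library gave 0 to 3. There were 0 without KO replicate 4, a fit that gives the clone E3 difference again, and 3 without WT replicate 2, where Id3 joined. There was 1 when KO replicate 2 or 3 or WT replicate 1 or 3 was dropped. Members with an unadjusted limma p under 0.05 were 0 within clone E3 and 0 to 3 with a library left out. With the replicate block by day over 6 libraries both stayed at 2, and the block changed no member's call. An adjusted p under 0.05 was reached by 0 members in all 27 fits, the lowest being 0.0878 for Id1 with voom and the block. The interaction of genotype and clone had 0 such members in each fit, and dropping KO replicate 4 leaves no fit for it.

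Other pathway genes past the criterion, 1 over 8 libraries, were 5 with the block. The blocked fit gave 4 on uncorrected values, 6 with voom on reads, and 2, Acvrl1 and Zfp423, after correcting for GC content and length. Without a clone term they were 3, with quantile normalization 2, and 0 for means of at least 50, for untransformed values, within clone E3, and on uncorrected values fitted without clone. With a library left out they were 0 to 6. All transcripts past the criterion, 576, were 1015 with the block, 1025 in the blocked fit on uncorrected values, 1076 in that with voom, 315 for means of at least 50, 270 untransformed and 278 within clone E3. With a library left out they were 260 to 835, the lowest without KO replicate 4 and the highest without WT replicate 3. Bmp4 kept its direction in 27 of 27 fits and its call in 22, and Id1 likewise. The cause of these changes was not tested. Smad6 and Id4 had the fewest reads, and Id1 and Id3 the largest standard errors (0.66 and 0.47).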
